A study of Rattus norvegicus with 44 samples.

Results

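The comparison described here asked how the response of rat liver to the compound R1 at 30 mg/kg/day differed between 336 h and 24 h of dosing. For each gene, the treatment effect at 24 h in study 1 was subtracted from the treatment effect at 336 h in study 3, each effect being R1 minus the vehicle arrays of its own study. The members are the probe sets whose 2 effects differed by this test, 61 of 6361 tested. They come from 15 arrays of 44 in the series: 4 of R1 30 mg/kg/day at 336 h, 5 of vehicle at 336 h, 3 of R1 30 mg/kg/day at 24 h and 3 of vehicle at 24 h. All rats were male Wistar rats, 8 weeks old when dosing began. R1, known from the labels by its code name only, or its vehicle, a citric acid buffer, was given once daily by oral gavage, and rats were killed 24 h after the last dose. RNA extracted with RNeasy from a left lateral lobe slice stored in RNAlater was labelled as biotinylated cRNA and hybridised to a rat Affymetrix expression array, which reads each gene with 1 or more probe sets, sets of short probes. The 336 h (2 week) and the 24 h arrays belong to different studies with different vehicle rats, so duration of dosing, age at death and study cannot be told apart.

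As background, the liver answers foreign compounds through nuclear receptors. CAR and PXR raise cytochrome P450 enzymes, conjugating enzymes and export pumps. The factor NRF2 raises genes that make and use glutathione, and SREBP-2 raises cholesterol synthesis when cellular sterol falls. Glutathione transferase pi (Gstp1) and gamma-glutamyl transferase (Ggt1) are low in normal adult rat hepatocytes, and both are used in rat liver as markers of altered hepatocyte foci. Male rats also express a set of steroid and drug metabolising enzymes under the pulsed growth hormone pattern of that sex.

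Values named signal are the deposited array intensities, which are relative within an array. All arrays of the series had the same set of sorted values, so a gene's signal reflects its rank, and genes near the top of the scale, such as Alb and Cyp3a23-3a1, have little room to rise. Effects are log2 differences ± SE from limma on log2(signal + 2.89), a scale that understates changes of dim genes. The call rule was an adjusted p under 0.05 (Benjamini-Hochberg over the 6361 tested). The labels number replicates without saying that they are separate animals, so the p-values rest on a spread between samples that may in part be technical. Arrays of a group correlated between 0.946 and 0.973 (r over the tested probe sets). Of all tested probe sets, 13.9% had no overlap between R1 and vehicle arrays at 336 h and 15.7% had none at 24 h. A lack of overlap is therefore given as description only. The labelled tissue was checked on hepatocyte markers. All 13 tested hepatocyte genes together summed to a signal of 47430 to 53930 in R1 arrays at 336 h, 54780 to 56370 in vehicle arrays at 336 h, 58460 to 61010 in R1 arrays at 24 h and 61450 to 62140 in vehicle arrays at 24 h.

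The effect at 336 h exceeded, fell short of or opposed the effect at 24 h in 61 probe sets, 0.959% of those tested. The difference was positive in 32 (0.503%) and negative in 29 (0.456%). At an unadjusted p under 0.05 there were 629. For comparison, 717 probe sets (11.3%) were called for R1 against vehicle at 336 h, 335 higher (5.27%) and 382 lower (6.01%). At 24 h there were 110 (1.73%), 94 higher (1.48%) and 16 lower (0.252%), from fewer arrays. The median SE of the difference was 0.444, against 0.282 for the effect at 336 h and 0.343 for the effect at 24 h. The count was sensitive to the small 24 h groups: it was 30 without vehicle replicate 1 at 24 h, 34 without R1 replicate 1 at 24 h and 35 without vehicle replicate 2 at 24 h. Likewise the count at 336 h was 453 without R1 replicate 3, and that at 24 h was 73 without vehicle replicate 1.

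Sorted by the 2 effects, 26 of the 61 had effects of the same sign that were larger at 336 h, 29 had effects of opposite sign and 6 had effects of the same sign that were smaller at 336 h. Among those larger at 336 h, the effect at 336 h was called in 26 and that at 24 h in 5. Opposite sign mostly meant a called effect at 336 h (26 of 29) beside a 24 h effect that did not pass the test. In 1 probe set of the 29 both effects passed, and it belongs to Mbl2, a mannose-binding lectin made by hepatocytes. This gene was chosen after its values were seen. Its signal was 105, 119, 58.1 and 72.7 in R1 arrays at 336 h, against 90.5, 223, 132, 171 and 208 in vehicle arrays at 336 h, and 88.5, 152 and 94.0 in R1 arrays at 24 h, against 46.4, 43.4 and 62.7 in vehicle arrays at 24 h. The groups overlapped at 336 h and did not at 24 h. Mbl2 fell by 0.86 ± 0.22 at 336 h and rose by 1.06 ± 0.27 at 24 h (limma adjusted p 0.00687 and 0.0261), and the vehicle arrays of study 3 lay 1.59 ± 0.24 above those of study 1. The R1 arrays differed by -0.33 ± 0.26 between the studies (limma adjusted p 0.424). The vehicle means of the other studies, 66.1 at 336 h in study 2 and 155 at 24 h in study 4, ordered the times the other way. Vehicle arrays of study 4, also at 24 h, lay 1.57 ± 0.26 above those of study 1 (limma adjusted p 6.13e-05). A second, brighter probe set of Mbl2 was not called.

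**Figure D1:**
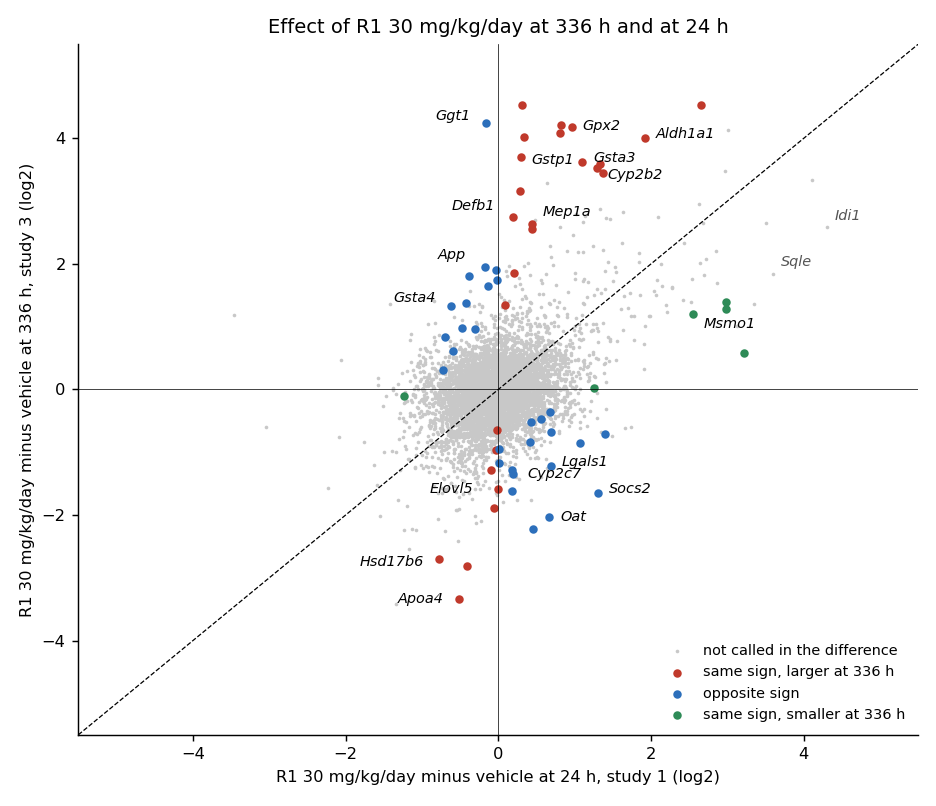
Effect of R1 30 mg/kg/day (log2, R1 minus vehicle) at 336 h in study 3 on the y axis and at 24 h in study 1 on the x axis, 1 point per tested probe set; coloured points are the 61 called in the difference and the dashed line marks equal effects. Ggt1 and Gstp1 stand high at 336 h with 24 h effects near 0, and Gpx2 stands high with a 24 h effect of 0.96. Oat and Elovl5 stand low, and Msmo1, Idi1 and Sqle (the last 2 not called) lie below the line with positive effects at both times.

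Of the 61, 48 carried a single gene symbol and stood for 41 genes. The naming rule covered 28 of these, 7 more were called by their brightest probe set, and 6 were called only by another probe set. The other 13 probe sets had no single symbol in the array's annotation and are not named. Taking each gene by its brightest probe set, 35 of 3696 genes were called in the difference (0.947%), 19 higher (0.514%) and 16 lower (0.433%).

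By brightest probe set, the largest positive differences were in genes that mark altered hepatocytes in rat liver and in glutathione enzymes. Ggt1, the membrane enzyme that breaks down extracellular glutathione, had a signal of 81.5, 74.8, 126 and 75.9 in R1 arrays at 336 h, against 1.86, 1.24, 4.06, 1.25 and 1.55 in vehicle arrays at 336 h. At 24 h its signal was 2.23, 2.90 and 2.12 in R1 arrays, against 3.98, 3.10 and 2.17 in vehicle arrays. Only the R1 arrays at 336 h rose above the lowest level that a tested gene had to reach in 1 group, 9.17, so the vehicle levels are near background and the size of the change is uncertain. The effect of R1 was 4.24 ± 0.25 at 336 h and -0.16 ± 0.30 at 24 h, a difference of 4.40 ± 0.39 (limma adjusted p 2.21e-10).

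Gstp1, a phase II enzyme that joins glutathione to reactive compounds, had a signal of 1592, 1199, 2807 and 1233 in R1 arrays at 336 h, against 125, 138, 118, 115 and 108 in vehicle arrays at 336 h. At 24 h its signal was 101, 57.3 and 95.4 in R1 arrays, against 64.5, 67.0 and 67.7 in vehicle arrays. The groups were far apart at 336 h and overlapped at 24 h. The effects were 3.71 ± 0.23 at 336 h and 0.29 ± 0.28 at 24 h, and they differed by 3.41 ± 0.37 (limma adjusted p 1.53e-08), with both probe sets of the gene called. Vehicle arrays of study 3 were also higher than those of study 1, by 0.83 ± 0.25 (limma adjusted p 0.0331).

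Gpx2, a glutathione peroxidase best known from the gut epithelium, had a signal of 112, 217, 268 and 169 in R1 arrays at 336 h, against 4.70, 9.91, 14.8, 2.02 and 10.2 in vehicle arrays at 336 h. At 24 h its signal was 21.7, 26.3 and 21.0 in R1 arrays, against 13.2, 8.26 and 10.1 in vehicle arrays. R1 and vehicle arrays did not overlap at either time, though only the effect at 336 h passed the test. It was 4.18 ± 0.39, against 0.96 ± 0.48 at 24 h, a difference of 3.22 ± 0.62 (limma adjusted p 0.00240). The vehicle mean at 336 h, 8.32, was under the filter level of 9.17, so the size of the difference is uncertain.

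Because these 3 genes had the largest positive differences by their brightest probe sets, the 250 bases before their starts are shown (RefSeq, build GRCr8, 5′ to 3′ on the gene's strand). Capitals mark the core of the antioxidant response element that NRF2 binds, TGACNNNGC, searched on both strands. The core begins as an AP-1 site does, so a match can overlap one.
Gstp1, chr1:210769706-210769955, minus strand: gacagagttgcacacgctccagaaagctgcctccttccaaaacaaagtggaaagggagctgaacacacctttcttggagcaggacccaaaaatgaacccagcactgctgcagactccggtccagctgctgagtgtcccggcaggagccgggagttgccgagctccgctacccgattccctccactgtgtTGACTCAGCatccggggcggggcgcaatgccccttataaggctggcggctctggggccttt
Gpx2, chr6:101230034-101230283, minus strand: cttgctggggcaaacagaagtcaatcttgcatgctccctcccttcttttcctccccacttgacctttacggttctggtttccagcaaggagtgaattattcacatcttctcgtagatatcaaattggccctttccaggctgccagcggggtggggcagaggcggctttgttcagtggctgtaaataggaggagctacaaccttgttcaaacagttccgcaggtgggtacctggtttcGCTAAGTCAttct
Ggt1, chr20:13095105-13095354, minus strand: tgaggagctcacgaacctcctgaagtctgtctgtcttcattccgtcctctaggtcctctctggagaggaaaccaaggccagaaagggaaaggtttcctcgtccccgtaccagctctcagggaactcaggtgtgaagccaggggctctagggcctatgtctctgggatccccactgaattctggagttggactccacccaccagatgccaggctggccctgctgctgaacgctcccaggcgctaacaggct
The core lay 61 bases before the start of Gstp1 on the sense strand and 13 bases before that of Gpx2 on the antisense strand, and these letters are not in the window of Ggt1. Over the 33469 promoters of the table, 10.1% hold it. Of the 28 called genes named here, 19 had a promoter in the table. The core was in 4 of 10 genes with a positive difference (Gstp1, Gpx2, App and, at 1 of its listed starts, Gsta3) and in 1 of 9 with a negative one (Itih3). A match is a description of the letters and not evidence of binding.

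Gsta4, a glutathione transferase that clears the lipid peroxidation product 4-hydroxynonenal, rose at 336 h and pointed down at 24 h. Its signal was 1106, 959.7, 1022 and 848 in R1 arrays at 336 h, against 370.3, 451, 337, 427 and 361 in vehicle arrays at 336 h, and 192, 158 and 236 in R1 arrays at 24 h, against 364, 333 and 218 in vehicle arrays at 24 h. The groups overlapped at 24 h. The effects were 1.33 ± 0.17 at 336 h and -0.62 ± 0.21 at 24 h, of which the second did not pass the test, and the difference was 1.96 ± 0.27 (limma adjusted p 8.74e-06), called in both probe sets.

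Gsta3, an alpha class transferase whose family members can share signal on this array, had a signal of 1490.2, 1490.2, 2077 and 1166 in R1 arrays at 336 h, against 123, 123, 196, 134 and 64.7 in vehicle arrays at 336 h. At 24 h it was 172, 283 and 68.9 in R1 arrays, against 88.4, 36.5 and 99.5 in vehicle arrays, and the groups overlapped. The difference was 2.53 ± 0.60 (limma adjusted p 0.0193), called in 2 of 3 probe sets. It was not called without R1 replicate 3 at 336 h, R1 replicate 3 at 24 h or vehicle replicates 1 or 3 at 24 h, where the adjusted p reached 0.125, nor with the replicate number as a block (adjusted p 0.0647).

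The fixed list of glutathione transferases and hepatocyte alteration markers had 15 tested genes. The difference was positive and called in 4 of them and negative and called in 0 (0.514% and 0.433% of all genes). Its median was 0.35, against -0.0012 over all tested genes. At 336 h, 8 rose and 1 fell, against 4.98% and 5.93% of all genes by the same counts. At 24 h, limma called 0 of the 15 in either direction (5 at an unadjusted p under 0.05), beside 1.14% and 0.189% of all genes. The summed signal of 8 bile duct markers, a cell type that also makes Ggt1 and Gstp1, moved with these genes. It was 241.6 to 350.2 in R1 arrays at 336 h, 121.7 to 229.2 in vehicle arrays at 336 h, 159.6 to 202.2 in R1 arrays at 24 h and 145.6 to 173.8 in vehicle arrays at 24 h. Of the 8, Epcam and Cd24 rose at 336 h (1.30 ± 0.30 and 1.56 ± 0.36), Krt19, Muc1, Slc4a2, Spp1, Cftr and Aqp1 did not pass the test, and limma called 0 in the difference (1 at an unadjusted p under 0.05). Their part in the result was not tested, and in bulk tissue more cells of a type and more RNA per cell cannot be told apart.

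**Figure D2:**
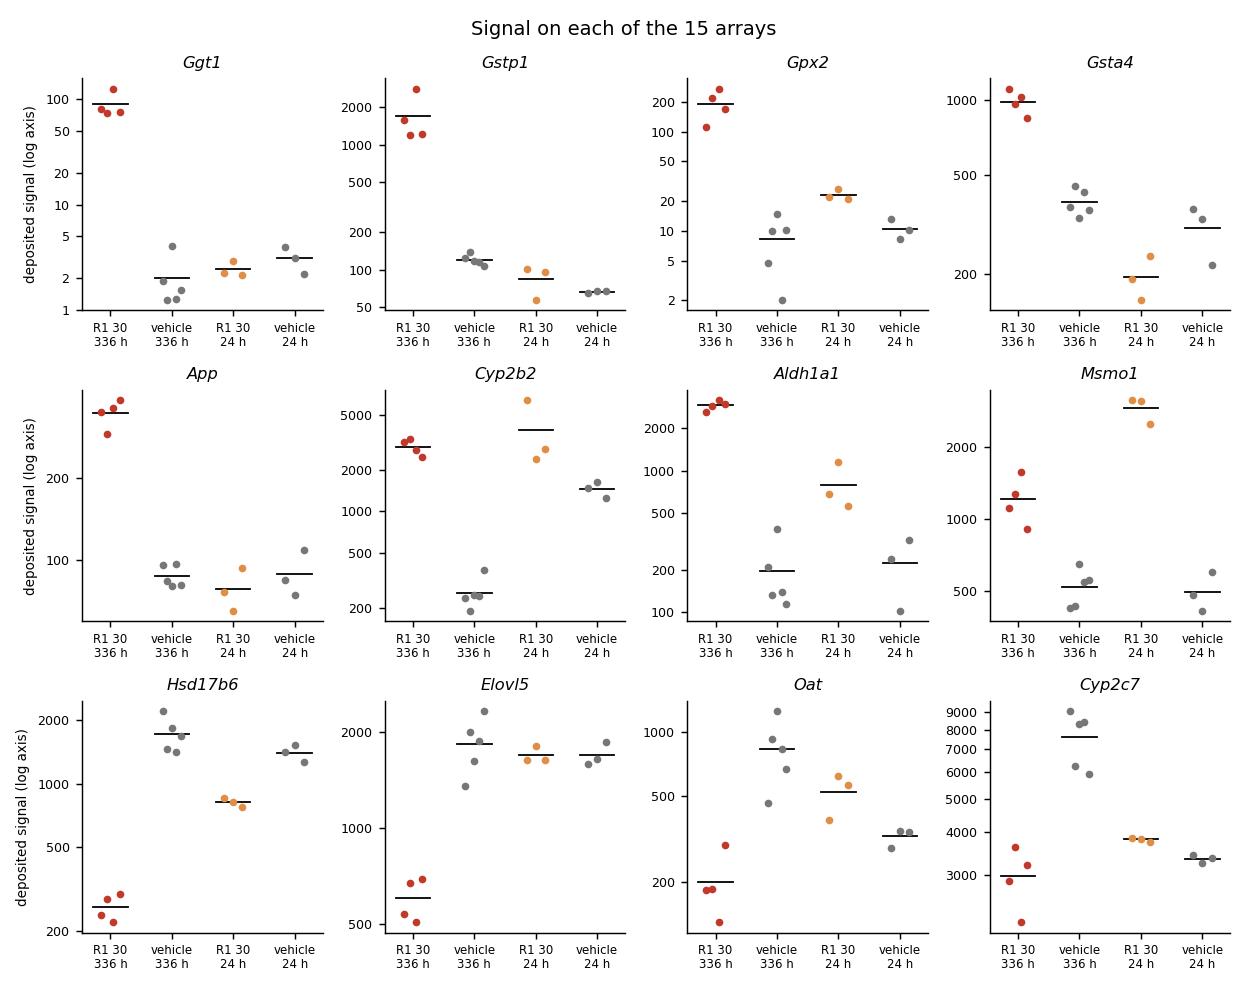
Deposited signal (y, log axis, 1 scale per gene) on each of the 15 arrays for 12 genes called in the difference; points are arrays, bars are group means, and groups run from R1 30 mg/kg/day at 336 h to vehicle at 24 h. Ggt1, Gstp1, Gsta4 and App are high only in the R1 arrays at 336 h among these groups, while Cyp2b2, Oat and Cyp2c7 also differ between the vehicle groups.

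Of 20 tested targets of CAR and PXR, 12 rose and 1 fell at 336 h (4.98% and 5.93% of all genes), and 10 rose and 0 fell at 24 h (1.14% and 0.189% of all genes). The difference was called higher in 3 (Aldh1a1, Cyp2b2 and Abcc3) and lower in 1 (Cyp2c7), against 0.514% and 0.433% of all genes. Its median over the list was -0.11. Cyp3a23-3a1, a steroid and drug hydroxylase, had effects of 1.73 ± 0.16 at 336 h and 2.07 ± 0.20 at 24 h by its brightest probe set, which sits near the top of the scale, and the difference was -0.34 ± 0.26 (limma adjusted p 0.729). The mean over its probe sets turned the sign, to 0.59, and 1 dimmer probe set of 4 was called at 1.87 (limma adjusted p 0.0193). Por, the electron donor of all microsomal P450 enzymes, had effects of 1.99 ± 0.33 at 336 h and 2.12 ± 0.40 at 24 h, with a difference of -0.13 ± 0.52 (limma adjusted p 0.958). Slco1a4, a sinusoidal uptake carrier, had effects of 1.75 ± 0.26 at 336 h and 2.54 ± 0.31 at 24 h, with a difference of -0.78 ± 0.41 (limma adjusted p 0.522). These p-values do not show that the effects were equal.

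Aldh1a1, an enzyme that makes retinoic acid and oxidises aldehydes, rose at both times, and more at 336 h in study 3 than at 24 h in study 1. Its signal was 2584, 2884, 3160.4 and 2984 in R1 arrays at 336 h, against 208, 133, 386, 140.1 and 115 in vehicle arrays at 336 h, and 682, 1151 and 564 in R1 arrays at 24 h, against 239, 102 and 325 in vehicle arrays at 24 h. The groups did not overlap at either time. The effects were 4.01 ± 0.29 at 336 h and 1.91 ± 0.36 at 24 h, and the difference was 2.10 ± 0.46 (limma adjusted p 0.0122). It was lost without R1 replicate 3, vehicle replicates 1 or 3 at 24 h (adjusted p up to 0.0768), and with only the 15 arrays in the model (adjusted p 0.0736). The vehicle mean at 336 h in study 2 was 780.6, and vehicle arrays of study 3 lay 2.11 ± 0.29 below those of study 2 (limma adjusted p 7.5e-07). At 336 h in study 2 the effects were 1.55 at 20 and 1.02 at 100 mg/kg/day. At 24 h in study 1 they were 0.15 at 10 and 2.08 at 100 mg/kg/day.

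Cyp2b2, a phenobarbital-type P450 that shares probe sequence with other Cyp2b genes, is a case where the vehicle groups differ. Its signal was 3191, 3339, 2766 and 2468 in R1 arrays at 336 h, against 235, 190.5, 249.6, 243 and 374 in vehicle arrays at 336 h, and 6408, 2397 and 2828 in R1 arrays at 24 h, against 1469, 1623 and 1244 in vehicle arrays at 24 h. R1 arrays reached overlapping levels at both times, while vehicle arrays of study 3 lay below those of study 1 by 2.50 ± 0.31 (limma adjusted p 3.99e-07). The difference of effects was 2.23 ± 0.45 (limma adjusted p 0.00466), and the R1 arrays themselves differed by -0.27 ± 0.32 between the studies (limma adjusted p 0.644). The vehicle means of the other studies, 551.5 at 336 h in study 2 and 474.8 at 24 h in study 4, lay between those of studies 3 and 1.

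Abcc3, an export pump of the sinusoidal membrane, had a signal of 47.4, 36.6, 85.4 and 52.4 in R1 arrays at 336 h, against 8.32, 6.51, 10.5, 4.37 and 4.46 in vehicle arrays at 336 h, and 2.34, 3.53 and 5.08 in R1 arrays at 24 h, against 2.86, 1.59 and 1.30 in vehicle arrays at 24 h. All groups but the first were dim, so the difference of 2.12 ± 0.50 (limma adjusted p 0.0183) is uncertain in size. It was not called without R1 replicate 3 at 336 h, R1 replicate 1 at 24 h or vehicle replicate 1 at 24 h (adjusted p up to 0.0804), nor with a smaller offset (adjusted p 0.0582).

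NRF2 targets and glutathione supply genes showed rises at both times. Of 13 tested, 8 rose and 0 fell at 336 h (4.98% and 5.93% of all genes). At 24 h, 3 rose and 0 fell (1.14% and 0.189% of all genes). Gpx2 alone was called in the difference (0.947% of all genes were), whose median over the list was 0.30. Gclc, the catalytic subunit of the enzyme that starts glutathione synthesis, ran the other way without passing the test of the difference. Its signal was 80.4, 62.6, 107 and 72.1 in R1 arrays at 336 h, against 53.8, 62.3, 46.3, 73.6 and 60.2 in vehicle arrays at 336 h, and 158, 149.7 and 134 in R1 arrays at 24 h, against 56.1, 48.5 and 57.8 in vehicle arrays at 24 h. R1 arrays stood apart from vehicle arrays at 24 h only. The difference was -0.98 ± 0.33 (limma adjusted p 0.204).

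**Figure D3:**
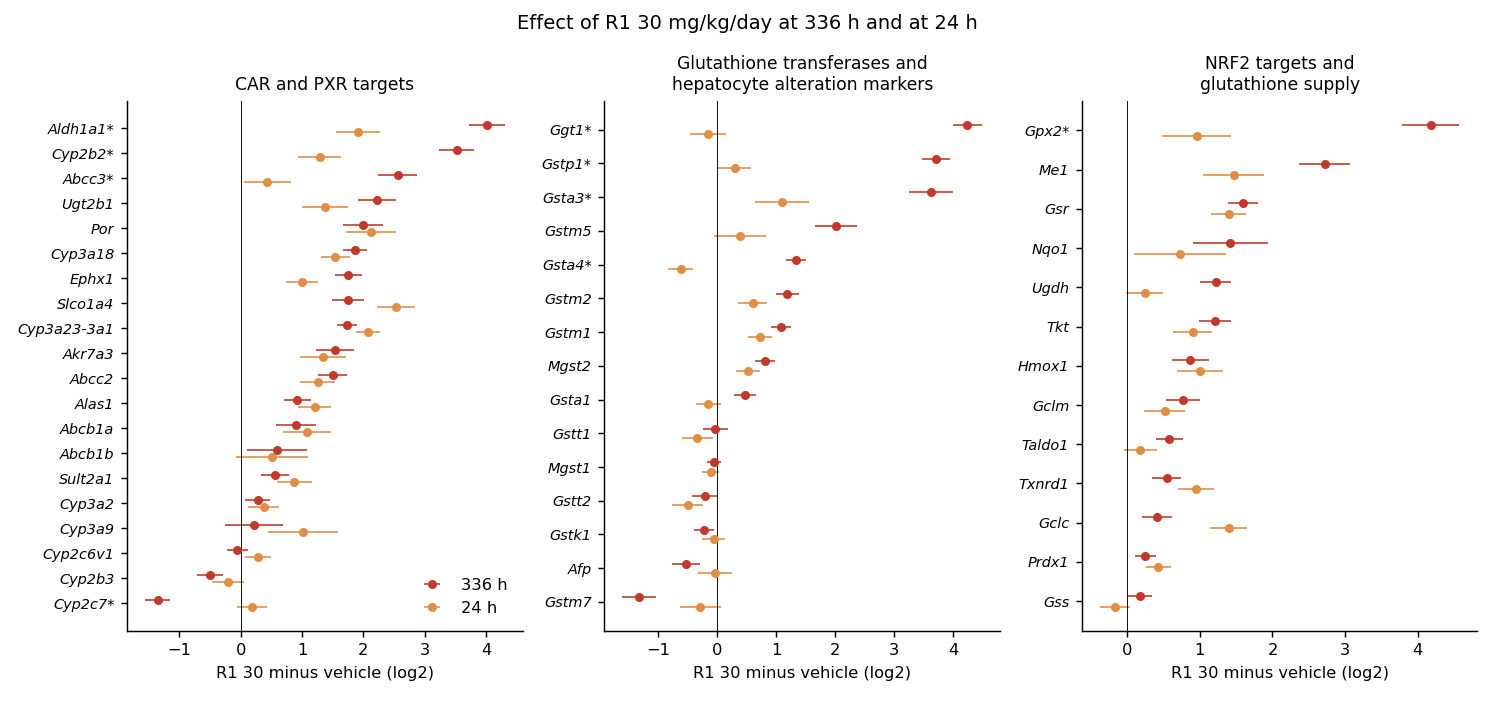
Effects of R1 30 mg/kg/day (x, log2, R1 minus vehicle, ± SE) at 336 h (red, upper point of each pair) and 24 h (orange, lower point) for tested genes of 3 lists; an asterisk marks genes called in the difference. Most CAR and PXR targets lie right of 0 at both times, while Ggt1, Gstp1, Gsta3, Gsta4 and Gpx2 are shifted to the right at 336 h.

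By brightest probe set, cholesterol synthesis genes rose at both times, and the effect at 336 h was the smaller one in each of 14 tested genes. The difference was positive, and not called, in a dimmer probe set of Idi1 (0.53, limma adjusted p 0.841). It was also positive and not called in a dimmer probe set of Cyp51 (0.20, limma adjusted p 0.950). The other probe sets of both genes were negative. At 336 h, 12 of 14 rose and 0 fell (4.98% and 5.93% of all genes), with a median effect of 1.37. At 24 h, 13 rose and 0 fell (1.14% and 0.189% of all genes), with a median of 2.24. The difference was negative in 14 of 14, with a median of -0.89. It passed the test in 1, Msmo1 (0.947% of all genes passed), and 11 had an unadjusted p under 0.05. Vehicle levels of studies 3 and 1 were close at the median of these genes (difference 0.06). For the named ones, study 3 lay above study 1 by 0.07 ± 0.22 for Msmo1, 0.49 ± 0.33 for Idi1, 0.74 ± 0.33 for Sqle and 0.12 ± 0.21 for Cyp51. These vehicle differences did not pass the test. Vehicle levels of studies 3 and 2, both at 336 h, were not close for the named genes of the list. Study 3 lay above study 2 by 2.36 ± 0.20 for Msmo1, 2.01 ± 0.30 for Idi1, 2.49 ± 0.30 for Sqle and 2.35 ± 0.20 for Cyp51, all called. The 14 share a regulator and the same arrays, so they are not independent of each other.

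Msmo1, the sterol C4-methyl oxidase, had a signal of 1110.0, 1271, 1569 and 909 in R1 arrays at 336 h, against 426, 435, 646, 545 and 558 in vehicle arrays at 336 h. At 24 h its signal was 3138, 3098 and 2493 in R1 arrays, against 482, 414 and 599 in vehicle arrays. R1 arrays lay above vehicle arrays at both times, and all R1 arrays at 336 h lay below all R1 arrays at 24 h. The effects were 1.20 ± 0.20 at 336 h and 2.55 ± 0.25 at 24 h, with a difference of -1.34 ± 0.32 (limma adjusted p 0.0200), called in both probe sets. It was lost without R1 replicate 4 at 336 h, or R1 replicates 1 or 2, vehicle replicates 1 or 2 at 24 h (adjusted p up to 0.103).

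Idi1 and Sqle, which act before squalene and on it in the pathway, showed the same order without passing the test. Idi1, the isopentenyl diphosphate isomerase, had a signal of 1041, 1187, 1374 and 1099 in R1 arrays at 336 h, against 196, 136, 236, 185 and 232 in vehicle arrays at 336 h, and 2505, 3115 and 2674 in R1 arrays at 24 h, against 112, 132 and 173 in vehicle arrays at 24 h. Sqle, squalene epoxidase, had a signal of 505, 497, 859 and 389 in R1 arrays at 336 h, against 175, 83.1, 200.5, 131 and 184 in vehicle arrays at 336 h, and 1335, 1069 and 917 in R1 arrays at 24 h, against 93.9, 66.3 and 107 in vehicle arrays at 24 h. For both genes every R1 array at 336 h lay below every R1 array at 24 h. The differences were -1.73 ± 0.48 for Idi1 (limma adjusted p 0.0710) and -1.76 ± 0.47 for Sqle (limma adjusted p 0.0538). A dimmer probe set of Idi1 had effects of 1.71 at 336 h and 1.17 at 24 h, the second not passing the test. Its difference was 0.53 ± 0.62 (limma adjusted p 0.841). Some other settings called both Idi1 and Sqle. With only the 15 arrays in the model, the adjusted p was 0.00177 for Idi1 and 0.0401 for Sqle, and with weighted arrays it was 0.0279 for Idi1 and 0.0319 for Sqle. Sqle was also called with a stricter filter on dim probe sets, with robust variances and with genes in place of probe sets (adjusted p 0.0420, 0.0498 and 0.0472), and without R1 replicate 3 or vehicle replicate 2 at 336 h (0.0275 and 0.0240). Of the 15 fits that each left out 1 array, 0 called Idi1 and 2 called Sqle. In these fits the adjusted p reached 0.224 for Idi1 and 0.216 for Sqle.

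Scarb1, the HDL receptor that takes up cholesteryl ester, had a signal of 179, 237, 127 and 201 in R1 arrays at 336 h, against 227, 258, 202, 223 and 258 in vehicle arrays at 336 h, and 372, 407 and 316 in R1 arrays at 24 h, against 175, 223 and 296 in vehicle arrays at 24 h. R1 arrays overlapped vehicle arrays at 336 h and lay above them at 24 h. The difference was -1.03 ± 0.26 (limma adjusted p 0.0365), with neither single effect called, by the brightest of its 3 probe sets. A second probe set was called in the difference (-1.37, limma adjusted p 0.0252) and the third was not (-1.06, limma adjusted p 0.0538). Both of these fell at 336 h, by 0.68 and 0.64 (limma adjusted p 0.0259 and 0.0133). The call of the brightest was lost without R1 replicates 1 or 3, vehicle replicates 1, 2 or 5 at 336 h, or R1 replicates 1 or 2, vehicle replicates 1 or 2 at 24 h (adjusted p up to 0.201). It was also lost with only the 15 arrays in the model, without the variance trend and with the replicate block (adjusted p 0.124, 0.0553 and 0.0503).

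**Figure D4:**
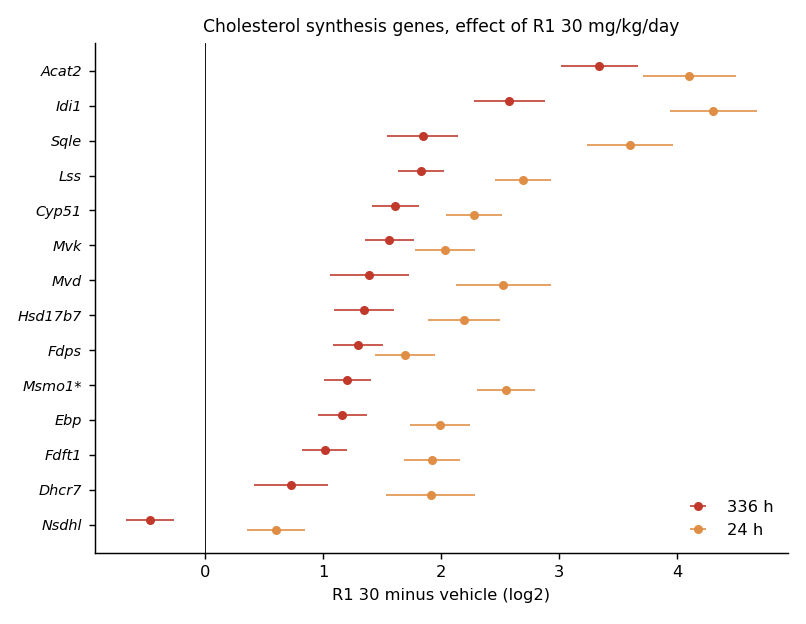
Effects of R1 30 mg/kg/day (x, log2, R1 minus vehicle, ± SE) at 336 h (red, upper point) and 24 h (orange, lower point) on 14 cholesterol synthesis genes; the asterisk marks Msmo1, called in the difference. Each gene is shown by its brightest probe set, and the red point lies left of the orange point in all 14 genes.

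Lipid and lipoprotein genes were among the largest negative differences. Apoa4, an apolipoprotein of intestinal and hepatic lipid transport, had a signal of 26.8, 35.2, 102 and 66.7 in R1 arrays at 336 h, against 499, 528, 664, 496 and 542 in vehicle arrays at 336 h. At 24 h it was 669, 274 and 514 in R1 arrays, against 699, 934 and 427 in vehicle arrays, and the groups overlapped. Apoa4 fell by 3.35 ± 0.38 at 336 h, against -0.52 ± 0.47 at 24 h, and the difference was -2.83 ± 0.60 (limma adjusted p 0.00828). Without R1 replicate 1 at 24 h the adjusted p was 0.051. Elovl5, which lengthens polyunsaturated fatty acids, had a signal of 539, 675, 508 and 691 in R1 arrays at 336 h, against 1361, 2001, 1623, 1874 and 2329 in vehicle arrays at 336 h. At 24 h it was 1636, 1816 and 1643 in R1 arrays, against 1587, 1655 and 1866 in vehicle arrays. Among these groups, Elovl5 was low in the R1 arrays at 336 h alone, with close vehicle levels in studies 3 and 1. The vehicle means of the other studies were 904.7 at 336 h in study 2 and 1597 at 24 h in study 4. Vehicle arrays of study 3 lay 1.02 ± 0.20 above those of study 2 (limma adjusted p 1.48e-04). Elovl5 fell by 1.59 ± 0.20 at 336 h, against -0.00 ± 0.24 at 24 h, and the difference was -1.59 ± 0.31 (limma adjusted p 0.00299). Apoc3, an inhibitor of lipoprotein lipase, showed a smaller difference of -0.63 ± 0.16 (limma adjusted p 0.0365) in 1 of its 3 probe sets. That call was lost without R1 replicates 2 or 3, vehicle replicates 3, 4 or 5 at 336 h, or R1 replicates 1 or 3, vehicle replicates 1, 2 or 3 at 24 h (adjusted p up to 0.0940). It was also lost without the filter on dim probe sets, with only the 15 arrays in the model, without the variance trend, with the replicate block and with the mean over its probe sets (adjusted p 0.0739 to 0.17). Of 14 tested apolipoprotein and lipid handling genes, 2 were called lower and 0 higher in the difference, and of 11 fatty acid synthesis genes 1 was called lower and 0 higher. Of all genes, 0.433% were called lower and 0.514% higher.

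Hsd17b6 and Oat, enzymes of steroid and amino acid metabolism, fell with R1 at 336 h. Hsd17b6, a hydroxysteroid dehydrogenase, had a signal of 238, 284, 221 and 299 in R1 arrays at 336 h, against 2210.1, 1463, 1834, 1413 and 1690.2 in vehicle arrays at 336 h, and 852, 822 and 774 in R1 arrays at 24 h, against 1413, 1522 and 1271 in vehicle arrays at 24 h. R1 arrays lay below vehicle arrays at both times, farther at 336 h. The effects were -2.70 ± 0.23 at 336 h and -0.78 ± 0.28 at 24 h, the second not passing the test, and the difference was -1.93 ± 0.36 (limma adjusted p 0.00156). Oat, ornithine aminotransferase of the mitochondria, had a signal of 184, 186, 129.9 and 296 in R1 arrays at 336 h, against 466, 932, 1248, 836 and 671 in vehicle arrays at 336 h, and 390.3, 622 and 569 in R1 arrays at 24 h, against 288, 347 and 343 in vehicle arrays at 24 h. R1 arrays were lower than vehicle arrays at 336 h and higher at 24 h, with no overlap at either time. The effect at 336 h was -2.03 ± 0.31 and passed the test (limma adjusted p 4.76e-06). That at 24 h was 0.67 ± 0.38 and did not (limma adjusted p 0.573). The difference was -2.70 ± 0.49 (limma adjusted p 0.00114) in 1 of 2 probe sets, and the vehicle arrays of study 3 lay 1.27 ± 0.34 above those of study 1 (limma adjusted p 0.0123). The vehicle means of the other studies, 232.8 at 336 h in study 2 and 881.7 at 24 h in study 4, ordered the times the other way.

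Cyp2c7, a retinoid and steroid hydroxylase, also differed between vehicle groups. Its signal was 2884, 3628, 2186 and 3212 in R1 arrays at 336 h, against 9050.0, 6277, 8294, 8418 and 5941 in vehicle arrays at 336 h, and 3862, 3827 and 3753 in R1 arrays at 24 h, against 3435, 3259 and 3357 in vehicle arrays at 24 h. The R1 arrays differed by -0.38 ± 0.23 between the studies, and the vehicle arrays by 1.16 ± 0.22 (limma adjusted p 0.291 and 3.71e-04). The difference of effects was -1.54 ± 0.32 (limma adjusted p 0.00670). Cyp7b1, the oxysterol hydroxylase of the acidic bile acid pathway, had a signal of 12.8, 11.3, 10.1 and 2.88 in R1 arrays at 336 h, against 21.5, 32.7, 41.4, 27.7 and 40.1 in vehicle arrays at 336 h, and 13.2, 17.0 and 19.1 in R1 arrays at 24 h, against 12.2, 11.6 and 18.9 in vehicle arrays at 24 h. Its vehicle level was likewise higher in study 3, by 1.04 ± 0.28, and the difference of effects was -1.79 ± 0.40 (limma adjusted p 0.0142), lost without vehicle replicate 1 or 2 at 24 h (adjusted p up to 0.0614) and with only the 15 arrays in the model (adjusted p 0.0811).

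Of 27 tested genes of amino acid catabolism and the urea cycle, 1 rose and 14 fell at 336 h (4.98% and 5.93% of all genes). At 24 h, 0 rose and 2 fell (1.14% and 0.189% of all genes). Oat alone was called in the difference (0.947% of all genes were). Median effects were -0.60 at 336 h and -0.50 at 24 h. Ass1, argininosuccinate synthase, fell by 0.82 ± 0.13 at 336 h and by 0.75 ± 0.16 at 24 h, a difference of -0.07 ± 0.21 (limma adjusted p 0.944). The steroid and growth hormone pattern list had 6 falls of 16 at 336 h (5.93% of all genes fell). It had 0 at 24 h (0.189% of all genes fell, and 5 of the list changed at an unadjusted p under 0.05). Hsd17b6 alone was called in the difference (0.947% of all genes were). In the growth hormone and IGF axis, 5 of 12 fell at 336 h and 0 at 24 h (2 at an unadjusted p under 0.05), against 5.93% and 0.189% of all genes. Igf1, the main hepatic growth factor, had effects of -1.02 ± 0.19 at 336 h and -0.34 ± 0.23 at 24 h, and these did not pass the test of the difference (adjusted p 0.410). Socs2, which damps growth hormone signalling, was the member called. Its signal was 4.89, 5.37, 9.90 and 6.30 in R1 arrays at 336 h, against 67.2, 14.3, 22.4, 50.8 and 9.99 in vehicle arrays at 336 h, and 11.2, 14.6 and 66.9 in R1 arrays at 24 h, against 4.62, 11.6 and 7.72 in vehicle arrays at 24 h. The spread within groups was wide and the groups overlapped at 24 h. Its difference was -2.94 ± 0.73 (limma adjusted p 0.0346), lost without R1 replicates 1, 2 or 4, vehicle replicates 1 or 4 at 336 h, or R1 replicate 3, vehicle replicates 1 or 3 at 24 h (adjusted p up to 0.182). It was also lost with a larger offset, without the filter on dim probe sets, with only the 15 arrays in the model and without the variance trend (adjusted p 0.0516 to 0.0904). Its vehicle mean at 24 h, 7.99, was under the filter level, so the size of the difference is uncertain.

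Several called genes belong to none of these pathways. App, the amyloid precursor protein, a membrane protein of many cell types, had a signal of 349, 291, 363 and 386 in R1 arrays at 336 h, against 95.3, 83.4, 80.3, 96.4 and 80.7 in vehicle arrays at 336 h. At 24 h it was 75.9, 64.8 and 92.9 in R1 arrays, against 84.2, 74.0 and 108 in vehicle arrays. App stood apart in the R1 arrays at 336 h alone. Its difference was 2.13 ± 0.34 (limma adjusted p 1.41e-04), called in both probe sets. Lbp, the lipopolysaccharide-binding acute phase protein, had a signal of 132, 139, 123 and 142 in R1 arrays at 336 h, against 45.0, 33.2, 27.4, 36.0 and 51.5 in vehicle arrays at 336 h, and 68.0, 52.8 and 40.5 in R1 arrays at 24 h, against 58.0, 66.9 and 39.0 in vehicle arrays at 24 h. Its difference was 1.77 ± 0.40 (limma adjusted p 0.0156), lost without R1 replicate 3 or vehicle replicates 1 or 2 at 24 h (adjusted p up to 0.0793). Other plasma proteins ran the opposite way, Itih3, of the inter-alpha-trypsin inhibitors, by -0.95 ± 0.24 (limma adjusted p 0.0411) and Apcs, serum amyloid P, by -0.92 ± 0.23 (limma adjusted p 0.0288). The Itih3 call was lost without R1 replicates 1 or 3, vehicle replicates 1, 4 or 5 at 336 h, or R1 replicates 1, 2 or 3, vehicle replicates 1, 2 or 3 at 24 h (adjusted p up to 0.122), and the Apcs call without R1 replicate 3 at 336 h, or R1 replicates 1, 2 or 3, vehicle replicate 1 at 24 h (adjusted p up to 0.132). Both calls were also lost without the variance trend and with the replicate block (adjusted p 0.0855 and 0.108 for Itih3, 0.0680 and 0.0719 for Apcs), and the Itih3 call without the filter on dim probe sets (0.0627). Of 19 tested acute phase genes, 1 rose and 6 fell at 336 h (4.98% and 5.93% of all genes). At 24 h, 0 passed the test (1.33% of all genes did), and 2 had an unadjusted p under 0.05.

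Mep1a, a brush border metalloprotease, had a signal of 196, 90.1, 179 and 164 in R1 arrays at 336 h, against 34.4, 27.6, 50.3, 11.8 and 7.54 in vehicle arrays at 336 h, and 28.6, 52.7 and 47.4 in R1 arrays at 24 h, against 25.1, 35.0 and 30.2 in vehicle arrays at 24 h. Defb1, an epithelial antimicrobial peptide, had 167, 94.5, 279.7 and 83.7 in R1 arrays at 336 h, against 23.4, 18.5, 8.99, 28.4 and 17.3 in vehicle arrays at 336 h, and 6.61, 6.47 and 15.4 in R1 arrays at 24 h, against 6.89, 7.27 and 8.19 in vehicle arrays at 24 h. Both stood apart from vehicle at 336 h and overlapped it at 24 h. The differences were 2.20 ± 0.50 for Mep1a (limma adjusted p 0.0158) and 2.56 ± 0.66 for Defb1 (limma adjusted p 0.0443), called in both Defb1 probe sets. Mep1a was not called without R1 replicate 1 or vehicle replicate 2 at 24 h (adjusted p up to 0.0819), and Defb1, by its brighter probe set, was not called without R1 replicates 1 or 3, vehicle replicates 1, 2, 3 or 5 at 336 h, or R1 replicates 1 or 2, vehicle replicates 1, 2 or 3 at 24 h (adjusted p up to 0.151). Mep1a was also not called with only the 15 arrays in the model (adjusted p 0.111), nor was Defb1 with a smaller offset, without the filter on dim probe sets, without the variance trend or with the replicate block (adjusted p 0.0582 to 0.0784). Bex3, an adaptor of neurotrophin receptor signalling, had a difference of 1.93 ± 0.41 (limma adjusted p 0.00734), which without R1 replicate 1 at 24 h gave an adjusted p of 0.0594.

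Lgals1, a galactose-binding lectin, had a signal of 15.6, 28.3, 15.4 and 7.79 in R1 arrays at 336 h, against 41.8, 70.4, 20.1, 48.0 and 33.7 in vehicle arrays at 336 h, and 87.3, 81.7 and 71.3 in R1 arrays at 24 h, against 42.7, 43.6 and 61.6 in vehicle arrays at 24 h. The groups overlapped at 336 h, where R1 was mostly lower, and at 24 h R1 arrays lay above vehicle arrays. The effect at 336 h was -1.22 ± 0.26 and passed the test (limma adjusted p 7.76e-04). That at 24 h was 0.68 ± 0.32 and did not (limma adjusted p 0.411). The difference was -1.90 ± 0.41 (limma adjusted p 0.00880) and was not called with only the 15 arrays in the model (adjusted p 0.0811). Csrp1, a LIM domain protein of the cytoskeleton, differed by -1.17 ± 0.27 (limma adjusted p 0.0158), where the vehicle arrays of study 3 lay 0.98 ± 0.19 above those of study 1 and the R1 arrays differed by -0.19 ± 0.20. This call was lost without R1 replicate 2 or vehicle replicate 1 at 24 h (adjusted p up to 0.0797) and with only the 15 arrays in the model (adjusted p 0.0845).

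Hbb, beta globin, had a signal of 2143, 1898, 1199 and 2426 in R1 arrays at 336 h, against 3723, 3284, 2639, 2695 and 4709 in vehicle arrays at 336 h, and 5585, 7187 and 5377 in R1 arrays at 24 h, against 4506, 4304 and 4663 in vehicle arrays at 24 h. Its difference was -1.26 ± 0.33 (limma adjusted p 0.0430), lost without R1 replicates 2 or 3, vehicle replicates 1, 2 or 5 at 336 h, or R1 replicates 1, 2 or 3, vehicle replicates 1, 2 or 3 at 24 h (adjusted p up to 0.148). It was also lost without the filter on dim probe sets, with only the 15 arrays in the model, without the variance trend and with the replicate block (adjusted p 0.0584 to 0.0855). The 4 tested erythroid genes together summed to 1834 to 3722 in R1 arrays at 336 h, 3882 to 8232 in vehicle arrays at 336 h, 7529 to 12450 in R1 arrays at 24 h and 7343 to 8574 in vehicle arrays at 24 h, and 3 of the 4 fell at 336 h (5.93% of all genes fell). Blood left in the slices was not measured, and its part in the Hbb result was not tested.

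The 7 genes called by their brightest probe set outside the naming rule are given here as chosen after their values were seen. They are Cnp, Cd59b, Crlf2, Nipal2, Idh2 and Rpl7a, with differences from 1.03 to 1.53, and Pemt, the enzyme that makes phosphatidylcholine by methylation, with -1.02. Idh2, the mitochondrial isocitrate dehydrogenase that yields NADPH, had a signal of 305, 297, 240.1 and 308 in R1 arrays at 336 h, against 144, 147, 223, 196 and 249 in vehicle arrays at 336 h, and 243, 204 and 188 in R1 arrays at 24 h, against 298, 408 and 265 in vehicle arrays at 24 h. R1 was the higher group at 336 h, with overlap, and the lower group at 24 h. Of the 15 fits that each left out 1 array, the call was lost in 11 for Cd59b, 10 for Idh2, 9 for Rpl7a, 7 for Cnp, 5 for Pemt and 3 each for Crlf2 and Nipal2. The calls of Cd59b, Idh2, Rpl7a and Cnp were also lost under 1 or more model settings. Genes called only by a dimmer probe set were Mbl2, Uox, Pc, Cyp2c11, Zmym3 and Cyp3a23-3a1. Uox, urate oxidase, had a signal of 1361, 1088, 1135 and 1191 in R1 arrays at 336 h, against 1241, 1199, 1268, 1538 and 1169 in vehicle arrays at 336 h, and 403, 492 and 678 in R1 arrays at 24 h, against 1187, 1237 and 1217 in vehicle arrays at 24 h. It was low with R1 at 24 h and not at 336 h, and its call was lost in 12 of the 15 fits. That of Pc and that of Cyp2c11 were lost in 11 each and that of Zmym3 in 10, while the Mbl2 call was kept in all 15. Uox, Pc, Cyp2c11 and Zmym3 also lost their calls under 1 or more model settings.

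Of 18 tested cell cycle genes, limma called 0 at 336 h (10.9% of all genes were called), 3 rose at 24 h (1.14% of all genes rose) and 0 were called in the difference (0.947% of all genes were), whose median was -0.38. At an unadjusted p under 0.05 there were 2 at 336 h, 5 at 24 h and 6 in the difference. Ccnd1, cyclin D1, had a signal of 88.3, 49.9, 97.6 and 76.5 in R1 arrays at 336 h, against 69.3, 64.0, 76.3, 52.4 and 68.2 in vehicle arrays at 336 h, and 202, 139.9 and 144 in R1 arrays at 24 h, against 74.4, 55.9 and 77.6 in vehicle arrays at 24 h. R1 arrays stood above vehicle arrays at 24 h and overlapped them at 336 h, and the difference was -0.99 ± 0.39 (limma adjusted p 0.335). Proteasome subunits rose in 10 of 20 genes at 336 h and in 2 of 20 at 24 h (4.98% and 1.14% of all genes rose). The medians were close, at 0.51 and 0.48, and limma called 0 in the difference (1 at an unadjusted p under 0.05). Sets of 25 PPAR-alpha and fatty acid oxidation genes, 22 oxidative phosphorylation genes and 20 ribosomal protein genes also had 0 called in the difference, and 2, 0 and 0 at an unadjusted p under 0.05. With 0.947% of all genes called, counts of 0 in lists of this size are near the background.

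Since the vehicle groups enter the comparison, their own differences were measured. Vehicle arrays of study 3 and study 1 differed in 508 probe sets (7.99%), or 283 without vehicle replicate 1 at 24 h and 295 without vehicle replicate 2 at 24 h. Vehicle arrays of study 3 and study 2, both at 336 h, differed in 1135 (17.8%), and those of study 4 and study 1, both at 24 h, in 359 (5.64%). R1 30 mg/kg/day arrays of study 3 and study 1 differed in 923 (14.5%). Studies of the same duration thus differed in their vehicle levels too. The 61 called probe sets were chosen by a difference that contains these same vehicle and R1 arrays. Counts of between-study differences among them are therefore partly set by that choice, and are given as description only. The vehicle difference was within 0.5 log2 in 35, beyond 1 in 13 and itself called in 17 (7.99% of all tested were called). The shares of all tested within 0.5 and beyond 1 are not given here. In 48 of the 61 the R1 arrays differed more between the studies than the vehicle arrays did. Among the 28 named genes, the vehicle difference was as large as that of the R1 arrays or larger for Cyp2b2, Cyp2c7, Cyp7b1, Csrp1 and, closely, Socs2. It was also the larger one for the called probe set of Mbl2. In 9 of the 61 a vehicle mean lay under 9.17, the level of the filter on dim probe sets.

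**Figure D5:**
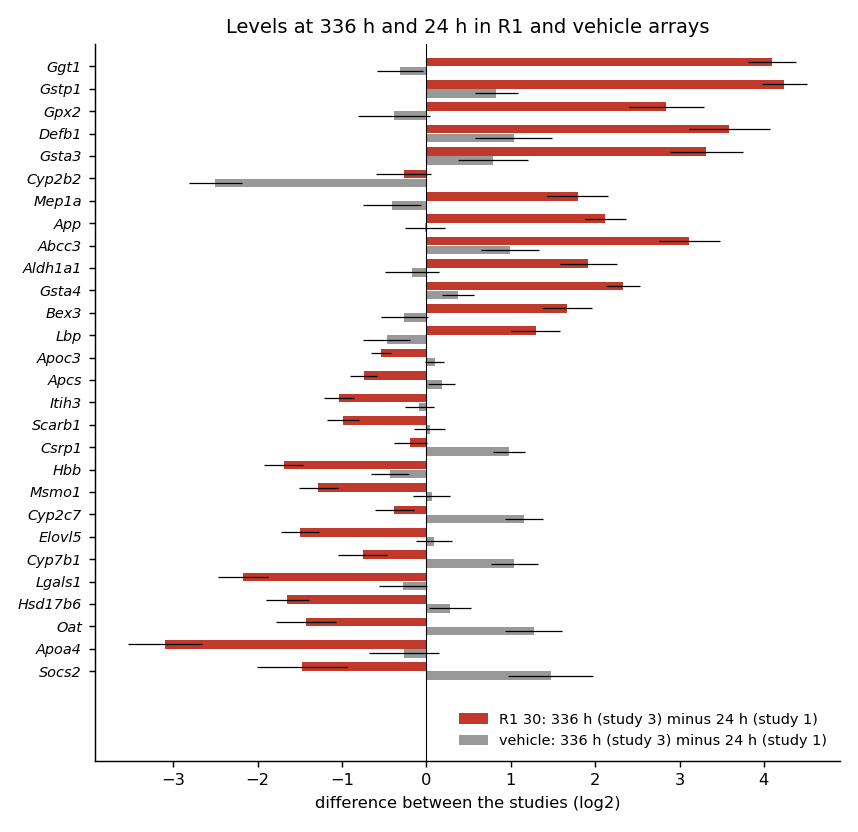
Difference in level between study 3 at 336 h and study 1 at 24 h (x, log2, ± SE) in R1 30 mg/kg/day arrays (red) and in vehicle arrays (grey) for the 28 named genes called in the difference of effects; the gap between the bars is that difference. For Ggt1, Gstp1, Gsta4, App, Apoa4 and Elovl5 the red bar is the long one, and for Cyp2b2, Cyp2c7 and Csrp1 the grey one.

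Study 2 dosed R1 for 336 h at 20 and 100 mg/kg/day with its own vehicle arrays and shares no array with the comparison above. Its arrays did enter the filter and the estimate of the spread that all groups share, so its calls are not fully independent of those above. Of the 32 probe sets with a positive difference, 25 rose at 20 mg/kg/day and 25 at 100 mg/kg/day (2.55% and 5.11% of all tested rose), and 0 fell at either dose. Of the 29 with a negative difference, 10 fell at 20 mg/kg/day and 10 at 100 mg/kg/day (1.89% and 5.2% of all tested fell), and at 100 mg/kg/day 5 rose. The effect at 336 h in study 3 was itself called in 30 of the 32 and 25 of the 29. The study 2 counts thus bear on the effect at 336 h and not on the difference between times, and the shares of all tested are not a matched background. Ggt1 had effects of 3.91 at 20 and 4.32 at 100 mg/kg/day, Gstp1 2.63 and 3.02, Gsta4 1.30 and 1.79, App 1.57 and 1.44. All 8 of these effects passed the test. Apoa4 had effects of -2.69 and -2.64 and Elovl5 of -1.04 and -1.05. Lbp (0.21 and 0.48) and Cyp7b1 (-0.17 and -0.18) did not pass the test in study 2, nor did Oat (-0.81 and -0.83). Their vehicle means in studies 2 and 3 were 96.7 and 38.6 for Lbp, 16.0 and 32.7 for Cyp7b1, and 232.8 and 831 for Oat. limma called each of these vehicle differences. The R1 means of Lbp were 111 at 20 and 135 at 100 mg/kg/day in study 2, and 134 in study 3. Hsd17b6 fell by 1.52 on the log2 scale at 20 mg/kg/day and had an effect of 0.03 at 100, with a vehicle mean of 738 in study 2 and 1722 in study 3. Msmo1 had effects of 0.50, not called, at 20 mg/kg/day and 4.33 at 100 mg/kg/day.

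At 24 h, study 1 also held R1 at 10 and 100 mg/kg/day, which share the vehicle arrays of the 30 mg/kg/day group. Of all tested probe sets, 1.24% were called at 10 and 6.4% at 100 mg/kg/day. Ggt1 had effects of -0.39 at 10, -0.16 at 30 and -0.01 at 100 mg/kg/day, and App 0.15, -0.18 and 0.11, none of them called. Gpx2 had 0.72, 0.96 and 1.64, of which the last passed the test (limma adjusted p 0.0257). Abcc3 had 0.71, 0.44 and 1.49, again with the last called (limma adjusted p 0.00981). Elovl5 had -0.14, -0.00 and -1.04 (limma adjusted p 0.00321 at 100 mg/kg/day). At 100 mg/kg/day, Msmo1 had an effect of 2.70 at 24 h, against 4.33 at 336 h in study 2. In the same order, Idi1 had 4.75 and 5.28, Sqle 3.94 and 4.60, and Cyp51 2.34 and 3.22. For these sterol genes the effect at 100 mg/kg/day was thus the larger one at 336 h, unlike at 30 mg/kg/day. The difference between times at 100 mg/kg/day was not tested.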

How the data were processed

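Liver RNA was measured on 44 arrays, of which 15 form the comparison. The deposited values are intensity values on a linear scale, made with MAS5 by the authors per the submitters' processing notes, which give no version. Sorted, the arrays were identical (largest difference 0), so they had been quantile normalized together, a step no source used here states.

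Of 8799 probe sets, 59 controls were left out. The platform annotation gave 1 symbol to 7006, several to 308 and none to 1426, and genes are named from 1 symbol, by their brightest probe set. An offset of 2.888 (percentile 20) preceded log2, and probe sets were tested where a group mean reached 9.17 (percentile 40). A model of 11 group means was fitted over all 44 arrays with limma 3.58.1 in R 4.3.3 (moderated variances with trend, 33 residual degrees of freedom, 2-sided). The simulated-data test of this fit is not quoted. The number of arrays limits the precision. Promoter sequences came from RefSeq, build GRCr8.

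Genes are named by rule: the 12 largest called differences each way, at most 4 called genes of each list, and well-known liver genes, some of them given as counts. The members and the gene lists were chosen with earlier results of these data known.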

Additional observations from a re-analysis of the deposited data

Results flagged for a closer look

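Of 110 groups examined (the 336 h groups of the named genes), 5 held an array far from the rest, and chance gives about 1 in 20. R1 replicate 3 at 336 h stood out in 3 of them. It had a signal of 126 for Ggt1, against 74.8 to 81.5 in the other R1 arrays, of 135 for Bex3, against 87.2 to 88.0, and of 10600 for Alb, against 11700. R1 replicate 2 at 336 h had 11300 for Cyp3a23-3a1, against 12100, near the top of the scale. Vehicle replicate 3 at 336 h had 4.06 for Ggt1, against 1.24 to 1.86 in the other vehicle arrays, all near background.

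The effect of R1 differed between 336 h and 24 h in 28 named genes, by the limma test of the difference itself. The difference (log2, effect at 336 h minus effect at 24 h) was positive in 13: Ggt1 4.40, Gstp1 3.41, Gpx2 3.22, Defb1 2.56, Gsta3 2.53, Cyp2b2 2.23, Mep1a 2.20, App 2.13, Abcc3 2.12, Aldh1a1 2.10, Gsta4 1.96, Bex3 1.93 and Lbp 1.77. It was negative in 15. These were Socs2 -2.94, Apoa4 -2.83, Oat -2.70, Hsd17b6 -1.93, Lgals1 -1.90, Cyp7b1 -1.79, Elovl5 -1.59, Cyp2c7 -1.54, Msmo1 -1.34, Hbb -1.26, Csrp1 -1.17, Scarb1 -1.03, Itih3 -0.95, Apcs -0.92 and Apoc3 -0.63.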

How the results depend on the processing

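The settings were another offset, filter, variance model, scaling or array weight, only the 15 arrays, a replicate block, the mean over a gene's probe sets, and each array left out in turn. Centring on the tested probe sets shifted a comparison by at most 0.0013 log2. Calls of the difference of effects numbered 45 without the variance trend and 86 with weighted arrays, against 61. For the named and other called genes, 1541 values kept direction and call, 243 lost the call, 11 gained it and 13 changed sign. Sign changes were in genes without a call. Cyp17a1 gave 0.22 with the offset at percentile 40 and 0.0116 with the replicate block, and the mean over probe sets gave 0.59 for Cyp3a23-3a1, 0.17 for Por and -0.12 for Cyp4a1. Leaving out 1 array gave -0.4593 to 0.1155 for Cyp17a1, -0.32 to 0.19 for Por, -0.41 to 0.33 for Hmox1 and -0.1867 to 0.0406 for Ass1. Counts without 1 array were 30 to 61 for the difference of effects, 453 to 727 at 336 h, 73 to 118 at 24 h and 283 to 516 between vehicles. Per gene instead of per probe set, with fewer features tested, counts were 405 at 336 h, 48 at 24 h and 250 between vehicles. Weighted arrays gave 833 between vehicles, and the cause was not tested. Same-numbered R1 and vehicle arrays showed little shared deviation (correlation -0.086 to 0.088 in study 3 and -0.024 to 0.044 in study 1). Differently numbered arrays of study 3 ranged more widely, from -0.267 to 0.31. These few correlations cannot tell whether the numbers pair the samples, and the labels do not say. With the replicate block 54 probe sets were called in the difference, 46 of them shared with the 61, 616 at 336 h and 99 at 24 h. Dim vehicle signal limits the size of the differences of Ggt1, Gpx2, Abcc3, Defb1 and Socs2.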
